A study of Mus musculus with 6 samples.

Results

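The cyclin and cyclin-dependent kinase genes described here are Ccna2, Ccnb1, Ccnb2, Cdk1, Ccne1, Ccne2, Cdk2, Ccnd2, Ccnd3 and the kinase inhibitor gene Cdkn1b. They were chosen by name, with earlier results of these data known. All 10 were found among the 49315 genes counted in each library, and all 10 passed the filter on low counts that left 15142 genes for testing. The RNA came from CD8+ T cells sorted from the tumor-draining lymph nodes of wild-type female C57BL/6J mice that carried B16F10 melanomas (the sample labels write the line as B26F10). In the combination group, 3 mice had received HCW9218, which the series title describes as a TGF-βRII and IL-15 complex, under the skin together with anti-PD1 into the peritoneum. In the monotherapy group, 3 mice had received HCW9218 under the skin alone. Both groups therefore carried tumors and both received HCW9218, in a single dose given at a tumor size of 50 to 100 mm3, and nodes were taken on day 5. No untreated mice and no mice given anti-PD1 alone were analysed here, so the comparison addresses what anti-PD1 added to HCW9218. Total CD8+ T cells were sequenced, so each value is an average over all CD8+ T cells of the node.

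Cyclins are proteins that rise and fall through the cell division cycle, and a cyclin-dependent kinase is active only while bound to one. D-type cyclins, with Cdk4 or Cdk6, respond to growth and antigen signals and begin the phosphorylation of the retinoblastoma protein. E-type cyclins with Cdk2 then bring the cell into S phase, cyclin A2 serves in S and G2 phase with Cdk2 and Cdk1, and the B-type cyclins with Cdk1 drive mitosis. The inhibitor p27, encoded by Cdkn1b, binds cyclin and kinase pairs and is abundant in resting T cells, which destroy it when they are stimulated to divide.

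Libraries held 34568074 to 39120808 counts in the combination group and 37116680 to 40101346 in the monotherapy group. Levels are given as CPM, a gene's counts per 1000000 counts of the library after TMM scaling, and as CPM per kb of exonic length where genes are compared with each other. The markers of CD8 T cells summed to 6405 to 8187 CPM in the combination libraries and 6882 to 8208 CPM in the monotherapy libraries, with all 9 of 9 markers counted, while Cd4 lay at 0.425 to 2.11 CPM and 1.67 to 3.06 CPM. Library make-up varied within the combination group. Ribosomal protein genes took 17.3%, 12% and 7.54% of counts in combination libraries 1, 2 and 3 and 10.9% to 13% in the monotherapy libraries. The count-weighted mean gene length was 4483, 5165 and 5798 bp in combination libraries 1, 2 and 3 and 5108 to 5381 bp in the monotherapy libraries.

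The 4 genes of the family that serve G2 phase and mitosis rose in the combination group, by 2.79-fold to 3.24-fold. The genes of S-phase entry differed by less and did not pass the test. Ccnd2 and Cdkn1b, the most abundant members per kb, had nearly equal means in both groups. Of the 10 members, 4 rose at a Benjamini-Hochberg adjusted p under 0.05 in edgeR's quasi-likelihood test (Ccna2, Ccnb1, Ccnb2 and Cdk1), 0 fell, and 6 did not pass the test. Among all genes tested, 0.951% were called higher and 0.132% were called lower at the same threshold. No member was lower at an unadjusted p under 0.05 either, and DESeq2 and limma-voom also called 0 members lower. In 6 members (the 4 above, Ccne2 and Ccnd3) the 3 combination libraries all lay above the 3 monotherapy libraries, against 7.17% of all genes tested. In 0 members did they all lie below, against 7.54% of all genes. The median log2 fold change, combination over monotherapy, was 0.58 over the 10 members and -0.000598 over all genes tested. Since the members were chosen with earlier results of these data known, these counts and shares describe the family and are no independent test of it. The count of members that rose depended on 2 monotherapy libraries: it was 1 without monotherapy replicate 1 and 2 without monotherapy replicate 3. With those libraries left out the number of genes called higher among all genes also dropped, to 32 and 33, against 144 with all 6 libraries.

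**Figure D1:**
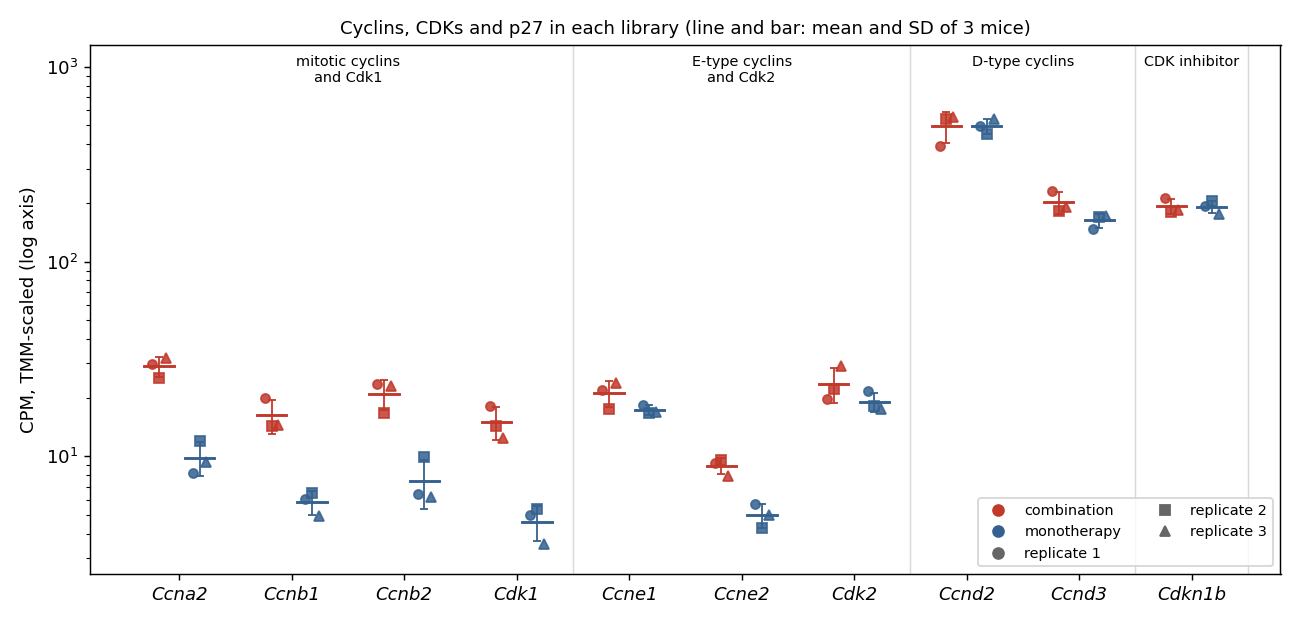
Level of each of the 10 members in each library, in TMM-scaled CPM on a log axis, grouped by role, with combination (red) left of monotherapy (blue). Marker shapes give replicates 1 to 3, and lines and bars are means and SDs of 3 mice; the groups are fully separated in Ccna2, Ccnb1, Ccnb2, Cdk1, Ccne2 and Ccnd3 and overlap in the other 4.

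Cdk1, the kinase of mitotic entry, had the largest log2 fold change of the members. It stood at 18.2, 14.3 and 12.5 CPM in combination libraries 1, 2 and 3, against 4.99, 5.36 and 3.55 CPM in the monotherapy libraries. Every combination library stood above every monotherapy library. Within the combination group Cdk1 fell in the order of the ribosomal protein share (17.3%, 12% and 7.54%), whose part was not tested. The group means were 15.0 ± 2.9 CPM and 4.63 ± 0.958 CPM (SD over 3 mice in each). This is a 3.24-fold difference, or 1.70 ± 0.22 (SE) on the log2 scale, with an edgeR adjusted p of 0.00702. These values rest on 482 to 598 counts per combination library and 147 to 211 per monotherapy library.

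Ccnb1, which encodes cyclin B1, the main mitotic partner of Cdk1, followed the same order of groups. It measured 19.9, 14.4 and 14.5 CPM in the combination libraries, against 6.02, 6.50 and 4.95 CPM in the monotherapy libraries. Combination library 1 was the highest, as it was for Cdk1, and monotherapy library 3 the lowest. The means were 16.3 ± 3.16 CPM and 5.82 ± 0.797 CPM, a log2 fold change of 1.48 ± 0.19 with an edgeR adjusted p of 0.00766.

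Ccnb2, the gene of cyclin B2, measured 23.4, 16.7 and 23 CPM in the combination libraries, against 6.41, 9.93 and 6.15 CPM in the monotherapy libraries. The groups did not overlap, although monotherapy library 2 stood above the other 2 of its group. Means of 21.0 ± 3.77 CPM and 7.5 ± 2.11 CPM gave a log2 fold change of 1.49 ± 0.22 and an edgeR adjusted p of 0.0156. A pseudogene copy, Ccnb2-ps, ran the other way without passing the test, with 2.80, 3.19 and 2.59 CPM in the combination libraries, against 3.73, 3.46 and 3.38 CPM in the monotherapy libraries (log2 fold change -0.30 ± 0.21, edgeR adjusted p of 0.877). How reads that match both copies were assigned is not given in the sources used here, so the split between them is uncertain.

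Ccna2, the gene of cyclin A2, which partners both Cdk2 and Cdk1, measured 29.7, 25.3 and 31.9 CPM in the combination libraries, against 8.19, 12 and 9.41 CPM in the monotherapy libraries. Here combination library 3 was the highest, unlike Cdk1 and Ccnb1, which were highest in combination library 1. Means of 29.0 ± 3.35 CPM and 9.86 ± 1.94 CPM gave a log2 fold change of 1.55 ± 0.18 and an edgeR adjusted p of 0.0045, the smallest of the 10 members. The gene Exosc9 on the opposite strand shares 12.5% of the exonic bases of Ccna2, and strand use in counting is not given. Exosc9 itself stood at 50.2, 39.99 and 21.2 CPM in the combination libraries and 36.4, 33.5 and 27.1 CPM in the monotherapy libraries, with a log2 fold change of 0.20 ± 0.27 (edgeR adjusted p of 0.959).

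The 95% intervals of these 4 log2 fold changes ran from 1.16 to 1.95 for Ccna2, from 1.05 to 1.91 for Ccnb1, from 0.98 to 1.99 for Ccnb2 and from 1.21 to 2.18 for Cdk1, and so overlapped throughout. Leaving out each library in turn kept the log2 fold change of Ccna2 between 1.45 and 1.72 and its edgeR adjusted p at or below 0.0455. Cdk1 missed the threshold without monotherapy replicate 1 (edgeR adjusted p of 0.0542), with a log2 fold change of 1.76. Ccnb1 missed it without monotherapy replicate 1 (0.062) or replicate 3 (0.0612), and Ccnb2 likewise (0.118 and 0.0948), with log2 fold changes of at least 1.36. Whether a higher value in bulk RNA reflects a larger share of dividing cells or more RNA per cell cannot be told apart, since fewer cells of a type and less RNA per cell give the same reading.

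**Figure D2:**
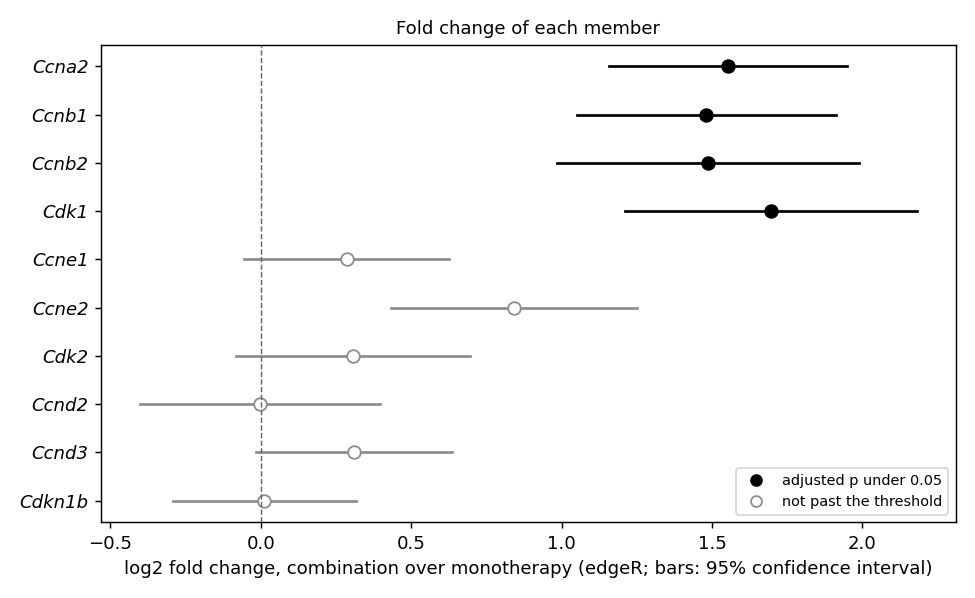
Log2 fold change of each member, combination over monotherapy, with 95% intervals from edgeR's quasi-likelihood fit. Cdk1 (1.70), Ccna2 (1.55), Ccnb2 (1.49) and Ccnb1 (1.48) passed the threshold on adjusted p; the interval of Ccne2 also lies above 0, and those of the other 5 include 0.

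The 4 genes that rose lie on 4 chromosomes, all on the minus strand. In the deposited coordinates, which are those of GRCm38 by comparison with GENCODE M21 for 8 of the 10 members, Ccna2 spans chr3:36564865-36572150, Ccnb1 spans chr13:100778650-100786570, Ccnb2 spans chr9:70407692-70421547 and Cdk1 spans chr10:69336635-69352938. Cdk1 and Cdk2 (chr10:128697939-128705051, minus strand) overlap their GENCODE entries and differ from them at one end. The other members are Ccne1 (chr7:38097984-38107534, minus strand), Ccne2 (chr4:11191351-11204779, plus strand), Ccnd2 (chr6:127125162-127152193, minus strand), Ccnd3 (chr17:47505051-47599691, plus strand) and Cdkn1b (chr6:134920401-134925513, plus strand). All 10 are annotated as protein coding.

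Because Cdk1, Ccnb1 and Ccnb2 moved together, their promoters are shown from RefSeq on GRCm38.p6, with that of Cdk2, a related kinase gene that did not pass the test, beside them. Of the 10 members, 7 had a promoter entry in the RefSeq table, which covers 250 bases before to 50 bases after each start; the promoters of Ccna2, Ccne2 and Ccnd2 are not analysed here. Each sequence runs 5′ to 3′ on the gene's own strand (minus in all 4). Capitals mark the CHR letters TTTGAA, the CCAAT box (ATTGG where it lies on the opposite strand) and the E2F letters TTTCGCGC or TTTGGCGC. The windows are chr13:100786437-100786736 for Ccnb1, chr9:70421505-70421804 for Ccnb2, chr10:69352863-69353162 for Cdk1 and chr10:128705002-128705301 for Cdk2.
Ccnb1: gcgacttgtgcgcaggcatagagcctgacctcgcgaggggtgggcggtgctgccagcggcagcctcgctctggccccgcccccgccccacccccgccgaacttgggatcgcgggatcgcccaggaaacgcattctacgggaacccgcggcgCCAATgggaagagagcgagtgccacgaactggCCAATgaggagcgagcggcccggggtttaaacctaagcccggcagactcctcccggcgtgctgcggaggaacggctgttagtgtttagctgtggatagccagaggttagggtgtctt
Ccnb2: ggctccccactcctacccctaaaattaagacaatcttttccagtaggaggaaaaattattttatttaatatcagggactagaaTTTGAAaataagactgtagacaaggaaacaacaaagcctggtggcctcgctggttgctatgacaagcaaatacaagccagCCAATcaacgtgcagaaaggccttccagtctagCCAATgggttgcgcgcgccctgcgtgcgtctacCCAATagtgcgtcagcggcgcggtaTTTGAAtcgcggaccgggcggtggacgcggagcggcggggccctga
Cdk1: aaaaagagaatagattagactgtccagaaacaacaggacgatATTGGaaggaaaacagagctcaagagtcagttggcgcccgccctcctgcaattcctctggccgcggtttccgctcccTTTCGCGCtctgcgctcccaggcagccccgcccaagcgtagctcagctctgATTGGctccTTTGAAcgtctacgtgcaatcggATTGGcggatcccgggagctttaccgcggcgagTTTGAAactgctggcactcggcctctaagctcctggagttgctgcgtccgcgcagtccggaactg
Cdk2: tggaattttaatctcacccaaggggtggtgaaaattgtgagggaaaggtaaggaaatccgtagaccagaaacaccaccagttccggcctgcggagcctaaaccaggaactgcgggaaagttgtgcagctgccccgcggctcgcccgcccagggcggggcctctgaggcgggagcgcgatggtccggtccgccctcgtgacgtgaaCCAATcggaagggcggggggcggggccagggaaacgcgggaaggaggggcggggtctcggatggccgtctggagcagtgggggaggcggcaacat

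The CCAAT box binds NF-Y, and the CHR element is bound by the DREAM and MuvB complexes that hold cell cycle genes off in resting cells and help switch them on before mitosis. Both strands were searched. Counted from the start site, the Cdk1 promoter held TTTGAA at -71 to -66 and at -15 to -10, 3 CCAAT boxes in reverse orientation that begin at -208, -80 and -48, and TTTCGCGC at -131 to -124. Ccnb2 held TTTGAA at -167 to -162 and at 5 to 10, and CCAAT boxes beginning at -87, -54 and -21. Ccnb1 held CCAAT boxes beginning at -99 and -67 and no TTTGAA in this window, and Cdk2 held 1 CCAAT box, beginning at -45. Cdkn1b, which did not pass the test, held 3 CCAAT boxes, and 6 of the members' 8 entries held at least 1. No marked motif overlapped another in these 4 promoters. Over all 32851 promoters of the table, 17.9% held TTTGAA, 37.4% held CCAAT and 0.813% held an E2F motif of those letters. The related letters TTCGAA (1.56% of all promoters) were in 0 of the members' 8 entries, and the FOXO letters GTAAACA (3.65%) were in 1, an entry of Ccnd3. These matches describe letters and show no binding. Forms of the elements other than the letters named here were not searched, so a promoter without marked letters may still hold such an element.

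The genes of S-phase entry, Ccne1, Ccne2 and Cdk2, lay closer between the groups. Ccne2, one of 2 E-type cyclin genes, measured 9.24, 9.63 and 7.98 CPM in the combination libraries, against 5.68, 4.29 and 4.99 CPM in the monotherapy libraries. The groups did not overlap. Means of 8.95 ± 0.862 CPM and 4.99 ± 0.694 CPM gave a log2 fold change of 0.84 ± 0.18 (95% interval 0.43 to 1.25), with an unadjusted p of 0.00108 and an adjusted p of 0.08 in edgeR, so it did not pass the threshold. It passed with DESeq2 (adjusted p of 0.00263) and in edgeR with no count filter (0.0137), with the replicate number as a block (0.0423) and without combination replicate 3 (0.0252). Without combination replicates 2 and 3, which leaves 1 combination library, its log2 fold change was 0.88. The opposite-strand gene Ints8 covers 17.4% of the exonic bases of Ccne2 and had a log2 fold change of 0.15 ± 0.15 (edgeR adjusted p of 0.934).

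Ccne1, the other E-type cyclin gene, measured 22.0, 17.5 and 23.9 CPM in the combination libraries, against 18.5, 16.6 and 16.9 CPM in the monotherapy libraries. The groups overlapped through combination library 2. Its log2 fold change was 0.29 ± 0.15 (95% interval -0.06 to 0.63, edgeR adjusted p of 0.739). Cdk2, the kinase partner of cyclins E and A, measured 19.7, 22.1 and 29.1 CPM in the combination libraries, against 21.6, 18.2 and 17.6 CPM in the monotherapy libraries. Its groups overlapped as well, with combination library 3 standing highest, and the log2 fold change was 0.31 ± 0.17 (95% interval -0.08 to 0.70, edgeR adjusted p of 0.774). Combination library 3 is also the one with the smallest ribosomal protein share (7.54%) and the greatest mean gene length (5798 bp), and the part of these in the Cdk2 value was not tested.

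Per kb, Ccnd2 and Ccnd3 were the most abundant cyclin genes among the 10 members. Outside the members, Ccni stood higher than Ccnd2, at 65.3 CPM per kb in the combination group and 65.0 CPM per kb in the monotherapy group. Ccnd2 measured 393, 537 and 554 CPM in the combination libraries, against 495, 450 and 540 CPM in the monotherapy libraries. Combination library 1 was the lowest of the 6 and combination library 3 the highest, in the order of their mean gene lengths, whose part was not tested. The means were 495 ± 88.5 CPM and 495 ± 45.2 CPM, and the log2 fold change was -0.00136 ± 0.18 (95% interval -0.40 to 0.40, edgeR adjusted p of 0.999). Its sign was not fixed: it was positive under several other scalings and filters.

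Ccnd3 measured 231, 183 and 191 CPM in the combination libraries, against 147, 169 and 172 CPM in the monotherapy libraries. The groups did not overlap, although combination libraries 2 and 3 stood close above the monotherapy libraries. The means were 202 ± 25.8 CPM and 163 ± 13.7 CPM. The log2 fold change of 0.31 ± 0.14 (95% interval -0.01 to 0.63) did not pass the test, with an edgeR adjusted p of 0.652. Opposite-strand genes cover 4.11% of the exonic bases of Ccnd3 (Bysl) and 7.86% of those of Ccnd2. The third D-type cyclin gene, Ccnd1, was near the lower end of measurement, at 1.13 ± 0.190 CPM in the combination group and 1.29 ± 0.339 CPM in the monotherapy group.

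Cdkn1b, the gene of p27, measured 213, 180 and 185 CPM in the combination libraries, against 194, 204 and 176 CPM in the monotherapy libraries. The groups interleaved. Means of 193 ± 17.8 CPM and 191 ± 14.4 CPM gave a log2 fold change of 0.01 ± 0.14 with a 95% interval of -0.29 to 0.32 (edgeR adjusted p of 0.994). The interval does not reach the size of the change in any mitotic member. p27 is controlled largely through destruction of the protein, which RNA counts do not measure.

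Levels were then compared between members per kb of exonic length. In the combination group the order was Ccnd2 (52.6 ± 9.41 CPM per kb), Cdkn1b (42.3 ± 3.90), Ccnd3 (23 ± 2.94), Ccnb2 (13.7 ± 2.47), Cdk2 (9.71 ± 2.02), Ccne1 (7.94 ± 1.23), Ccna2 (7.10 ± 0.821), Cdk1 (4.35 ± 0.842), Ccnb1 (3.85 ± 0.750) and Ccne2 (2.56 ± 0.247). Neighbours whose libraries overlapped in that order were Ccnd2 and Cdkn1b, Ccnb2 and Cdk2, Cdk2 and Ccne1, Ccne1 and Ccna2, and Cdk1 and Ccnb1. In the monotherapy group the same levels were 52.6 ± 4.81 for Ccnd2, 42.0 ± 3.17 for Cdkn1b, 18.5 ± 1.56 for Ccnd3, 7.86 ± 0.892 for Cdk2, 6.51 ± 0.372 for Ccne1, 4.90 ± 1.38 for Ccnb2, 2.42 ± 0.476 for Ccna2, 1.43 ± 0.199 for Ccne2, 1.38 ± 0.189 for Ccnb1 and 1.34 ± 0.278 for Cdk1. Here the libraries overlapped between Ccne1 and Ccnb2 and among Ccne2, Ccnb1 and Cdk1. In both groups Ccnd2, Cdkn1b and Ccnd3 were the 3 highest, and Ccnb2 stood above Cdk2 in the mean only in the combination group.

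Summed per kb, Ccna2, Ccnb1, Ccnb2 and Cdk1 reached 32.5, 24.7 and 29.9 CPM per kb in the combination libraries, against 9.06, 12.5 and 8.53 CPM per kb in the monotherapy libraries. The sums of Ccne1, Ccne2 and Cdk2 averaged 20.2 ± 2.63 and 15.8 ± 1.42 CPM per kb in the combination and monotherapy groups, and those of Ccnd2 and Ccnd3 averaged 75.6 ± 6.62 and 71.2 ± 5.24 CPM per kb. Of the per kb total of the 10 members, Ccnb2 took 8.19% ± 1.25 in the combination group and 3.52% ± 0.984 in the monotherapy group. Ccna2 took 4.24% ± 0.328 and 1.74% ± 0.337, and Cdk1 took 2.61% ± 0.546 and 0.967% ± 0.200. Ccnd2 still took the greatest share, at 31.5% ± 5.59 in the combination group and 37.9% ± 3.48 in the monotherapy group. The shares add to a fixed total, so one share cannot rise without another falling.

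**Figure D3:**
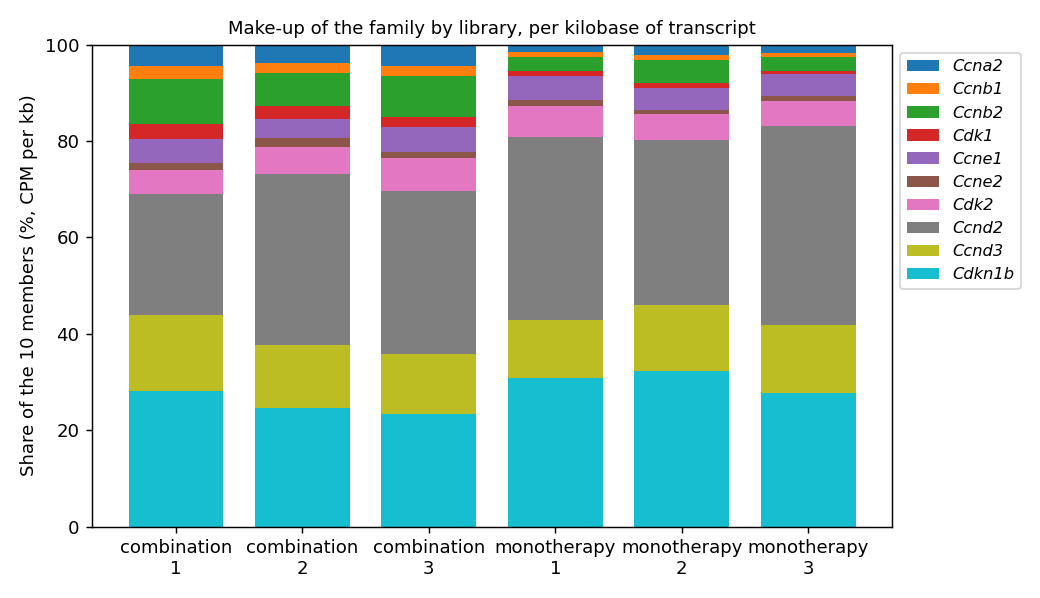
Share of each member in the summed CPM per kb of the 10 members, one stacked bar per library, combination libraries left of monotherapy libraries. The bands of Ccna2, Ccnb1, Ccnb2 and Cdk1 are wider in each combination library than in each monotherapy library, and Ccnd2 and Cdkn1b fill the largest part of all 6 bars.

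Ratios of members within one library do not depend on how libraries are scaled, and 5 pairs were compared. The ratios use the same counts as the fold changes above and so are not separate evidence. The log2 ratio of Cdk1 over Cdk2, per length, was -0.62, -1.12 and -1.73 in combination libraries 1, 2 and 3, against -2.62, -2.26 and -2.81 in the monotherapy libraries. All 3 combination values were above all 3 monotherapy values, with means of -1.16 ± 0.55 and -2.56 ± 0.28 (SD, n = 3 each) and a difference of 1.41. The combination values of this pair fell in the order of the ribosomal protein share (17.3%, 12% and 7.54%), whose part was not tested. The log2 ratio of Ccnb1 over Cdkn1b varied least within groups, at -3.47 ± 0.14 in the combination group and -4.93 ± 0.09 in the monotherapy group, a difference of 1.46. Ccna2 over Ccnd3 averaged -1.70 ± 0.19 and -2.95 ± 0.21 in the combination and monotherapy groups, a difference of 1.26. Ccne2 over Ccne1 averaged -1.62 ± 0.36 and -2.20 ± 0.13, a difference of 0.57. Each of these 4 pairs was fully separated, with an exact two-sided permutation p of 0.1, the smallest that 3 against 3 allows, and 0.125 after Benjamini-Hochberg adjustment over the 5 pairs. Ccnd2 over Ccnd3 overlapped between the groups, at 0.66, 1.45 and 1.43 in the combination libraries, against 1.65, 1.31 and 1.55 in the monotherapy libraries (difference -0.32, exact permutation p of 0.4). Without combination replicate 1 that difference was -0.06.

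**Figure D4:**
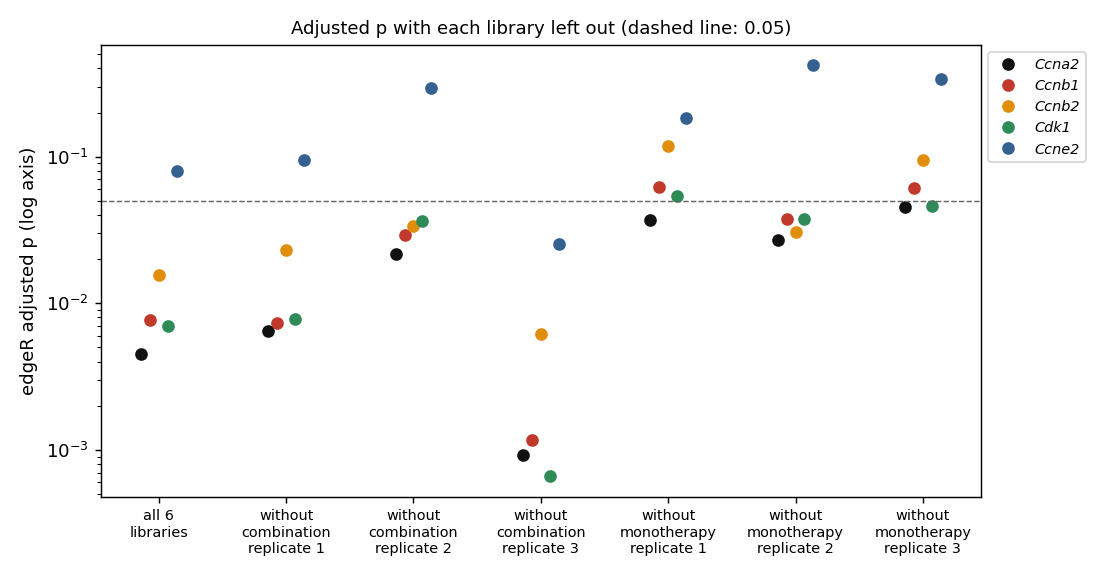
Adjusted p of Ccna2, Ccnb1, Ccnb2, Cdk1 and Ccne2 in edgeR, on a log axis, with all 6 libraries and with each library left out in turn; the dashed line marks 0.05. Ccna2 stays below the line in each column, Ccnb1, Ccnb2 and Cdk1 rise above it without monotherapy replicate 1 (0.062, 0.118 and 0.0542), and Ccne2 falls below it without combination replicate 3 (0.0252).

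The sort could also hold other cells, and their markers were read beside these genes. Of 8 melanocyte markers, the summed level was 30.3, 43.8 and 55.9 CPM in combination libraries 1, 2 and 3 and 21.9 to 28.7 CPM in the monotherapy libraries. Pmel alone gave 29.05 CPM of this sum in combination library 1 and 20.88 to 26.97 CPM in the monotherapy libraries. Pmel overlapped between the groups and did not pass the test (edgeR adjusted p of 0.924). Dct, a pigment enzyme gene that defines melanocytes, had 0, 301 and 377 counts in combination libraries 1, 2 and 3 and 0 counts in every monotherapy library, and Tyrp1 had 0, 281 and 366 counts against 0 or 1. Combination library 1, with 0 counts of Dct, Tyrp1 and Tyr, held the highest Cdk1 (18.2 CPM), Ccnb1 (19.9 CPM) and Ccnb2 (23.4 CPM) of the 6. Ccna2 was highest in combination library 3 (31.9 CPM), which had the most Dct, and measured 29.7 CPM in combination library 1. With combination libraries 2 and 3 left out, the log2 fold changes were 1.58 for Ccna2, 1.77 for Ccnb1, 1.63 for Ccnb2 and 1.97 for Cdk1. That fit rests on 1 combination library and assumes that it varies like the monotherapy libraries. The part of melanocytes in the mitotic result was not tested.

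Summed markers of 6 other cell types overlapped between the groups or lay lower in the combination group. B cell markers summed to 510 to 624 CPM in the combination libraries and 495 to 563 CPM in the monotherapy libraries. Ighm alone gave 450 to 545 CPM of these sums in the combination libraries and 433 to 512 CPM in the monotherapy libraries. Of the 8 B cell markers, Cd22 rose, with 16.3, 26.2 and 25.2 CPM in the combination libraries, against 5.88, 9.88 and 9.22 CPM in the monotherapy libraries (2.71-fold, edgeR adjusted p of 0.0244), and the other 7 overlapped between the groups. The part of B cells in the mitotic result was not tested. For germinal centre B cells, which divide rapidly, the sums were 5.47 to 6.57 CPM and 5.45 to 6.63 CPM in combination and monotherapy libraries. CD4 T cell markers summed to 4.10 to 8.20 CPM and 6.43 to 12 CPM, myeloid markers to 12.3 to 14.3 CPM and 9.10 to 22.8 CPM, and plasma cell markers to 6.67 to 8.08 CPM and 7.47 to 13.6 CPM, in combination and monotherapy libraries. Erythroid markers summed to 1.03 to 1.85 CPM in the combination libraries and 2.10 to 7.49 CPM in the monotherapy libraries. NK cell markers moved with the mitotic genes, at 181 to 215 CPM in the combination libraries and 122 to 139 CPM in the monotherapy libraries. Of the 5 NK markers, Klre1 and Gzma rose by about as much as the mitotic genes. Klre1, an NK receptor gene, measured 15.2, 15.3 and 8.73 CPM in the combination libraries, against 4.51, 4.68 and 3.31 CPM in the monotherapy libraries (3.14-fold, edgeR adjusted p of 0.0161). Gzma, which encodes granzyme A, measured 13.3, 10.8 and 7.46 CPM in the combination libraries, against 4.07, 3.23 and 3.76 CPM in the monotherapy libraries (2.86-fold, edgeR adjusted p of 0.0173). Eomes, which gave most of the sum, stood at 149 to 186 CPM in the combination libraries and 113 to 130 CPM in the monotherapy libraries without passing the test (edgeR adjusted p of 0.189). Klrb1c was 1.45-fold higher and overlapped between the groups (edgeR adjusted p of 0.773), and Ncr1 had 5 to 11 counts in the combination libraries and 2 to 13 in the monotherapy libraries. Activated CD8 T cells also express Eomes and Gzma. The part of the NK markers in the mitotic result was not tested.

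Other genes of the pathway were read from 6 lists of 89 genes. Their counts stand beside the shares among all genes tested, 0.951% called higher and 0.132% called lower. Like the members, the lists were chosen with earlier results of these data known. Of the other cyclins, 17 of 19 were tested, 1 rose and 0 fell, with a median log2 fold change of -0.03. The one that rose was Ccnf, the gene of cyclin F, an F-box protein of G2 phase that directs the destruction of its partners and activates no kinase. It measured 8.26, 11.5 and 13.3 CPM in the combination libraries, against 4.23, 5.06 and 3.96 CPM in the monotherapy libraries (log2 fold change 1.32 ± 0.21, edgeR adjusted p of 0.0212). Ccnjl, Ccng2 and Ccno followed by p and did not pass, at log2 fold changes of -0.97, 0.32 and -0.97 (edgeR adjusted p of 0.55, 0.65 and 0.729).

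Among the other cyclin-dependent kinases, 14 of 17 were tested and 0 rose or fell in edgeR, with a median log2 fold change of 0.02. Their smallest p belonged to Cdk19, a Mediator kinase, with a log2 fold change of -0.33 ± 0.13 and an edgeR adjusted p of 0.471, and it was the only 1 with an unadjusted p under 0.05. Cdk20, Cdk13 and Cdk6 were next, at -0.31, -0.18 and 0.26. Cdk4, the main partner of the D-type cyclins with Cdk6, averaged 140 ± 22.1 CPM in the combination group and 128 ± 9.05 CPM in the monotherapy group (log2 fold change 0.13 ± 0.15, edgeR adjusted p of 0.944).

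Of the other inhibitors, 5 of 7 were tested and 2 rose. Cdkn2c, which encodes the Cdk4 and Cdk6 inhibitor p18, measured 15.3, 12.7 and 13.7 CPM in the combination libraries, against 6.41, 8.0 and 6.61 CPM in the monotherapy libraries (log2 fold change 0.99 ± 0.17, edgeR adjusted p of 0.0237). Cdkn3, a phosphatase that acts on Cdk2 and whose RNA rises in dividing cells, measured 5.68, 3.61 and 3.00 CPM in the combination libraries, against 1.11, 1.45 and 1.33 CPM in the monotherapy libraries (log2 fold change 1.66 ± 0.30, edgeR adjusted p of 0.0353). Cdkn1c and Cdkn2d did not pass, at -0.50 and 0.16, and Cdkn1b itself is described above.

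The 11 genes that phosphorylate, dephosphorylate or bind the kinases were all tested, 1 rose and 0 fell, and the median log2 fold change was 0.53. Cdc25c, the phosphatase that activates Cdk1 at mitosis, measured 2.40, 1.77 and 2.25 CPM in the combination libraries, against 0.473, 0.508 and 0.603 CPM in the monotherapy libraries. Its log2 fold change of 2.02 ± 0.32 (edgeR adjusted p of 0.0181) was larger than that of any member. Mastl (1.22 ± 0.25), Cks1b (0.94 ± 0.23) and Cdc25b (0.61 ± 0.13) were higher in all 3 combination libraries without passing, with edgeR adjusted p of 0.059, 0.127 and 0.0773. Such full separation upward was seen in 7.17% of all genes tested. Cks1b, a small subunit of the kinases, stood at 19.0, 11.9 and 11 CPM in the combination libraries, against 8.13, 6.38 and 7.31 CPM in the monotherapy libraries. Its highest value fell in combination library 1, where the mean gene length is shortest (4483 bp) and the ribosomal protein share greatest, and their part was not tested.

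Cyclins and p27 are removed by the anaphase-promoting complex and SCF ubiquitin ligases. Of 10 genes of this machinery all were tested, 1 rose and 0 fell. Cdc20, the mitotic activator of the anaphase-promoting complex, measured 24.5, 16.4 and 22.2 CPM in the combination libraries, against 7.05, 11.3 and 10.3 CPM in the monotherapy libraries (log2 fold change 1.14 ± 0.22, edgeR adjusted p of 0.0436). Fbxo5 (0.50), Fzr1 (0.40) and Skp2 (0.31), of which Skp2 targets p27, did not pass, with edgeR adjusted p of 0.197, 0.576 and 0.831.

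Of 25 transcriptional regulators of cyclin genes, all were tested, 2 rose and 0 fell, with a median log2 fold change of 0.10. E2f2, an activator E2F, measured 39.6, 39.1 and 53.2 CPM in the combination libraries, against 17.4, 23.5 and 19.98 CPM in the monotherapy libraries (log2 fold change 1.12 ± 0.17, edgeR adjusted p of 0.0162). E2f8, an atypical repressor E2F, measured 6.02, 7.68 and 12.4 CPM in the combination libraries, against 2.62, 3.07 and 2.65 CPM in the monotherapy libraries (log2 fold change 1.65 ± 0.28, edgeR adjusted p of 0.0238). Foxm1, an activator of G2 and mitosis genes, and E2f7 had log2 fold changes of 1.33 ± 0.27 and 1.93 ± 0.41 and did not pass (edgeR adjusted p of 0.0604 and 0.0754). Over the 6 lists the calls numbered 7 higher and 0 lower in edgeR, where only 0.132% of all genes tested were called lower. Ccnjl, Cdk19 and E2f5 were the genes lower at an unadjusted p under 0.05, as were 513 of all 15142 genes tested. Among the same genes DESeq2 gave 12 higher calls and limma-voom gave 5, and neither gave a lower one. With limma-voom the inhibitor list kept 1 higher call and the destruction list, where Cdc20 had passed in edgeR, had 0. Leaving out monotherapy replicate 1, 2 or 3 or combination replicate 2 left 0 of the 7 calls, with all 4 of these fits also calling fewer genes overall (32 to 69 higher). The combination libraries all lay below the monotherapy libraries in 5 regulators, 2 other kinases and 1 other cyclin. They all lay above in 6, 0 and 2 genes of these lists. In the binding partner, inhibitor and destruction lists they lay above in 6, 2 and 3 genes and below in 0. Among all genes tested the shares were 7.54% below and 7.17% above.

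**Figure D5:**
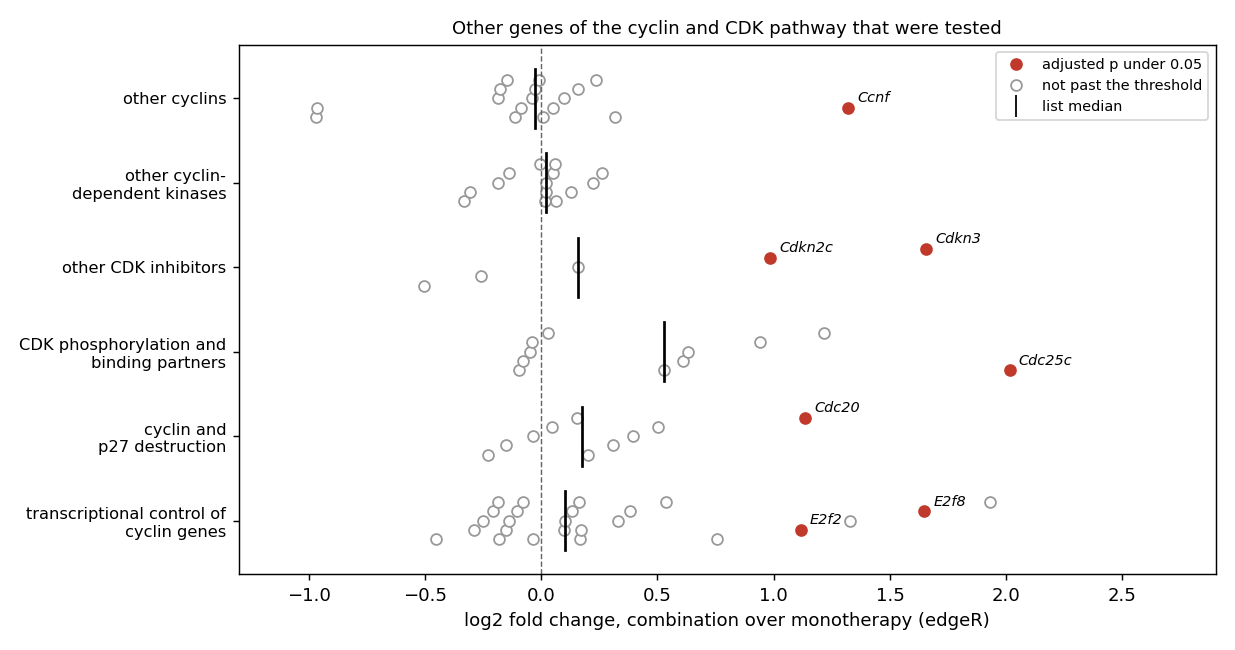
Log2 fold change, combination over monotherapy, of every tested gene in the 6 pathway lists, one row of points per list, with the list median as a vertical bar. The points past an edgeR adjusted p of 0.05 are filled and named (Ccnf, Cdkn2c, Cdkn3, Cdc25c, Cdc20, E2f2 and E2f8), and all lie above 0.

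The profile of Cdk1 over the 6 libraries was set against every other tested gene with a mean of at least 5 CPM, by the root mean square distance between centred log2 CPM values. Ccnb1 was the nearest of the members at 0.129, followed by Ccnb2 (0.258), Ccna2 (0.271) and Ccne2 (0.473), and Ccnd2 was the farthest at 0.894. Outside the members and lists, the nearest were Wdr95 (0.146), Gzmb (0.148), Esco2 (0.170), Shcbp1 (0.180) and Birc5 (0.190). The minimum of 5 CPM is a mean over all 6 libraries. Wdr95, Gzmb, Esco2 and Shcbp1 averaged 3.62, 2.74, 3.24 and 4.17 CPM in the monotherapy group. They met the minimum only through their higher combination values, so their likeness to Cdk1 is partly built in. Gzmb, which encodes the cytotoxic protease granzyme B, measured 9.30, 8.55 and 7.46 CPM in the combination libraries, against 2.95, 2.79 and 2.46 CPM in the monotherapy libraries. Esco2 encodes a cohesin acetyltransferase of S phase, and Birc5 encodes survivin, a subunit of the chromosomal passenger complex of mitosis. These distances describe 6 libraries that share 1 contrast.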

How the data were processed

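Bulk RNA sequencing counts of 6 libraries, 3 mice per group, were analysed, with groups and replicate numbers as the sample titles give them. RNA was isolated with Trizol, selected with oligo(dT) beads and built into libraries with the NEBNext Ultra II kit, per the labels' protocols. Reads were aligned and counted with STAR 2.5.2b and featureCounts (Subread 1.5.2), and DESeq2 was run, per the submitters' processing notes. The settings, the strand option and the genome build were not given in the sources used here. As deposited, the values are raw counts of reads per gene. The series table holds 6 more columns that belong to no sample listed here, and these were left aside. The 174 genes without a name took part in the fit.

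Counts were fitted in R 4.3.3 with edgeR 4.0.16, using filterByExpr by group, TMM factors (0.901 to 1.12) and a quasi-likelihood F-test without covariates. Adjustment (Benjamini-Hochberg) ran over all 15142 genes, and an adjusted p under 0.05 counts as a rise or a fall. The alternatives were RLE and upper-quartile scaling, no filter, a filter of 1 CPM in 3 libraries, DESeq2 1.42.0, limma-voom (limma 3.58.1), a replicate block and left-out libraries. Levels between members are CPM per kb of exonic length in place of TPM, because TPM shifted with library make-up, and ratios within a library are the same in both. The genes named were all members, up to 4 per list with the smallest p, and the 5 nearest in profile to Cdk1. Others, named after their values were seen, were Ccnd1, Ccni, Cdk4, E2f5, the overlapping genes and Ccnb2-ps. The members and lists were chosen with earlier results of these data known. The edgeR p-values are set against the spread between mice, 3 per group, which edgeR estimates for each gene partly from the other genes. No pair of libraries agreed within sampling noise. Some marker genes are not reported here.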

Additional observations from a re-analysis of the deposited data

How the results depend on the processing

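Direction and call held for Ccna2 in all 14 alternatives (log2 fold change 1.45 to 1.72), and the number of members that rose was 4 under RLE scaling, upper-quartile scaling, a 1 CPM filter and limma-voom. Leaving out single libraries gave 1 to 5 members higher, and 0 lower in each case. Pathway genes called higher, 7 in all, numbered 14 with no filter, 12 with DESeq2, 12 with the replicate block, 5 with limma-voom, 15 without combination replicates 2 and 3, and 0 to 10 with single libraries left out; 1 was lower without combination replicates 2 and 3. The replicate block gave 5 members higher. Same-number deviations correlated at 0.23, -0.14 and 0.36, and those of different numbers at -0.35 to 0.22. So few values cannot settle whether the numbers pair the samples. Ccnd2, at -0.00136, was positive with RLE scaling (0.0032), upper-quartile scaling (0.0088), no filter (0.0035), a 1 CPM filter (0.0020) and DESeq2 (0.0032), and ran from -0.091 to 0.16 with single libraries left out; Cdkn1b ran from -0.048 to 0.074. The causes were not tested. Over all genes, calls numbered 144 higher and 20 lower, against 340 and 113 with no filter, 284 and 73 with DESeq2, and 231 and 57 with the replicate block. With 3 mice per group, exact tests cannot go below 0.1, and Ccnd1 and Cdc25c rest on few counts.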
